A study of Mus musculus with 2 samples.

Results

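Schwann cells are the glia of peripheral nerve, and the 9 genes described here (Sox10, Egr2, Erbb3, Ngfr, Pmp22, Mbp, Mag, Prx and S100b) were chosen by name, as regulators, receptors and myelin proteins of that cell type, from 21911 protein-coding gene symbols. All 9 were found in the annotation. Schwann cells arise from the neural crest, survive on neuregulin from the axon, and either wrap a single large axon in myelin or ensheath several small ones. The transcription factor Sox10 is needed throughout the lineage and acts with Egr2 to switch on the genes of compact myelin. A limb muscle holds these cells in its intramuscular nerves and, as terminal Schwann cells, at the neuromuscular junction.

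The samples were 2 DNase-seq libraries of whole gastrocnemius, the large calf muscle, from male B6CASTF1/J mice aged 14 days, with no treatment named. B6CASTF1/J is an F1 hybrid of C57BL/6J and CAST/EiJ. DNase-seq sequences the cuts that DNase I makes in accessible DNA, so that a peak marks open chromatin, and short protected stretches inside a peak are called footprints. The labels call the libraries biological replicates, name the same donor entry for both, and carry the words "3x Males" with no explanation, so the number of animals behind each is not known. There is 1 group and no contrast. Where a pair of values is given, replicate 1 comes before replicate 2, and all are a description without a test over samples, and ± denotes the SD (n = 2). A difference between the libraries may be technical. In whole tissue, fewer cells of a type and less accessible DNA per cell cannot be told apart.

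Peak signal is the authors' own value per peak, and its scaling is not stated in the labels or file headers. Each library has a strict and a permissive peak list, and the strict lists (82498 and 88198 peaks) were used unless stated. A gene was called open if a strict peak of each library lay within 1 kb of any of its annotated starts, and its promoter signal was that of the strongest such peak. The percentile ranks that signal among all protein-coding genes of the same library, where genes without a peak tie at 18.3. The tissue label was checked on muscle fibre genes. Of 10, 9 were open, against 61.7% of all genes. Highest were Actn3, which crosslinks actin in fast fibres (percentile 82.1), Mylpf, a fast myosin light chain (79.1), and Ckm, the muscle creatine kinase (78.3). Lowest of the 9 was Ttn (55.5). A list of axon signals and receptors, described below, was 93.3% open, so the count alone does not set muscle apart. Mb, for myoglobin, had a peak in replicate 1 only (signal 2.88).

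Of the 9 Schwann cell and myelin genes, 7 were open in both libraries. Over all protein-coding genes 61.7% were open, so that the count is not far from that share. Sox10 and Mag, the gene of a myelin adhesion protein that faces the axon, had no promoter peak in either library, in the strict or the permissive list. Of the open genes, Prx, for the periaxin scaffold of myelin, and Egr2 had the strongest single promoter peaks. When all promoter peaks of a gene were summed the order was Pmp22 (mean percentile 97.0), Egr2 (90.6) and Prx (84.5), and with a window of 250 bases Prx fell to percentile 35.4. The sum takes in the windows of all starts, so it can rise with the number of spread starts, such as the 4 of Pmp22. Overlapping peaks of a library are each counted in it. The median percentile of the 9 was 47.3 and 45.7, against 50 over all genes by construction. Among open genes the members lay low: only Prx and Egr2 exceeded the median signal of all open genes in both libraries (6.15 and 3.51), and the median of the 7 was 1.96 and 1.45.

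**Figure D1:**
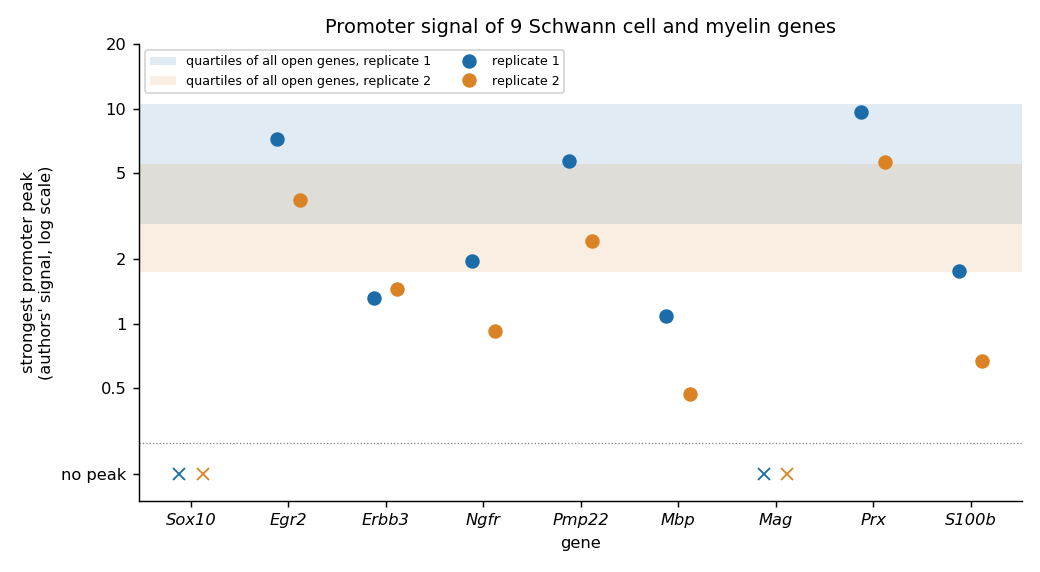
Signal of the strongest promoter peak (authors' signal, log axis) of each of the 9 genes in replicate 1 and replicate 2, with shaded quartiles of all open genes in each library and crosses for genes without a peak. Prx and Egr2 are the highest in both libraries, Mbp is the lowest of the open genes in both, and Sox10 and Mag have no peak.

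Promoter sequences were matched for 6 of the 9 genes in RefSeq (GRCm38.p6, the assembly called mm10 in the files), and 4 are shown because the presence of a peak divides them although all are poor in CpG dinucleotides. Each line gives the 250 bases before the outermost RefSeq start, 5′ to 3′ on the strand of the gene, with CpG dinucleotides in capitals. Mag (chr7:30914923-30915172, minus strand) and the upstream start of Prx (chr7:27499074-27499323, plus strand) had no peak. S100b (chr10:76253586-76253835, plus strand) and the upstream start of Pmp22 (chr11:63128732-63128981, plus strand) had one in both libraries.
Mag: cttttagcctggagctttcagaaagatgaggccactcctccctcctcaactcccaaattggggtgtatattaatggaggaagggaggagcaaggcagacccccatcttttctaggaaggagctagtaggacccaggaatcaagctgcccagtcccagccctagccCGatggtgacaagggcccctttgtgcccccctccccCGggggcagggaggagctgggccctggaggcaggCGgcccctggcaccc
Prx: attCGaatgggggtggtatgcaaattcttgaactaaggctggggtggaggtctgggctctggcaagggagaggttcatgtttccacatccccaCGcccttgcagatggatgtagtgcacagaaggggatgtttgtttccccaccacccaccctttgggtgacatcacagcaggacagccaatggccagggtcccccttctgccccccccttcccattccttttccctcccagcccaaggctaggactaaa
S100b: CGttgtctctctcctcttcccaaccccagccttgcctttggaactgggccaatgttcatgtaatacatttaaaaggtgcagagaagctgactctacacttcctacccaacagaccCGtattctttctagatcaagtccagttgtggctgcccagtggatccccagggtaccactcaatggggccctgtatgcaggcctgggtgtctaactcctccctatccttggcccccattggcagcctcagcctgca
Pmp22: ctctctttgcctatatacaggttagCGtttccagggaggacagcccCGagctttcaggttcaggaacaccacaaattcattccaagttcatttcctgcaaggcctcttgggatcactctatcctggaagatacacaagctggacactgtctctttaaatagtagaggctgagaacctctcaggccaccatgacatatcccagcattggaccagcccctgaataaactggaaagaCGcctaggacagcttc
The 4 stretches hold 3, 2, 2 and 3 CpG dinucleotides in that order. Both open starts of this set are the lowest in CpG ratio, defined below, of the 15 open starts of the 9 genes (0.0972 at S100b and 0.158 at Pmp22), and the other 13 open starts lay between 0.511 and 0.734.

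The regulators differed from each other. Sox10 (chr15:79154908-79165240, minus strand) has 2 annotated starts, and neither had a strict peak within 1 kb. The FDR track, in which the authors list bases with an FDR under 0.05, held no base within 1 kb of either start in either library. That was also so for Mag, and over all genes 29.0% had no listed base in either library. Among the 7629 genes without a promoter peak in either library the share was 83.2%, so an empty window is usual for a gene without a peak. The nearest strict peaks to a Sox10 start lay 15650 and 15630 bases downstream of it, beyond the end of the gene. A permissive peak of replicate 1 lay 1650 bases upstream (chr15:79166890-79166944, signal 0.574), and replicate 2 had none closer than its strict peak.

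Egr2 (chr10:67535475-67542188, plus strand) encodes the zinc finger factor that drives myelination. Its strongest promoter peak had signals of 7.21 and 3.78, at percentiles 73.5 and 71.5 (mean 72.5 ± 1.42). The peak spans chr10:67537661-67537860 in both libraries and ends 9 bases before the start at 67537869. A neighbouring peak at chr10:67537381-67537600 (merged over libraries) had signals of 5.99 and 3.18, and in all 5 and 4 peaks lay in the promoter windows. When the signals of these peaks were summed, Egr2 stood at percentile 90.6 ± 0.887 of all genes.

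The receptor genes were both open at modest signal. Erbb3 (chr10:128567523-128589652, minus strand), whose product pairs with Erbb2 to receive neuregulin, had promoter signals of 1.31 and 1.45 (percentiles 44.2 and 51.1, mean 47.7 ± 4.87). The strongest peak was not the same in both libraries. The peak over the start had signals of 1.31 and 0.638, while the peak upstream of it, in the merged region chr10:128590248-128590660, had 1.20 and 1.45. Ngfr (chr11:95568818-95587735, minus strand) encodes the low-affinity neurotrophin receptor, a marker of immature and repair Schwann cells that other cell types also express. Its promoter signals were 1.96 and 0.922 (percentiles 48.4 and 45.7, mean 47.0 ± 1.92), from a peak over the start. A promoter window of 2500 bases, which takes in the stronger intronic region described below, raised Ngfr to percentile 64.0.

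Among the myelin protein genes the promoters ranged from the strongest single peak to none. Pmp22 (chr11:63128982-63159547, plus strand) encodes a membrane protein of compact myelin that many other cell types also express. All 4 of its annotated starts were open, with 6 and 7 peaks in the promoter windows. The strongest had signals of 5.72 and 2.42 (percentiles 67.3 and 59.8, mean 63.5 ± 5.24), and they were different peaks of the promoter windows in the 2 libraries. The sum over all its promoter peaks put Pmp22 at percentile 97.0 ± 0.381, from a longer searched stretch than a gene with 1 start has. The outermost start, printed above, had a peak over it with signals of 1.77 and 1.22, less than the strongest peak near the inner starts in each library.

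Mbp (chr18:82475146-82585637, plus strand) encodes myelin basic protein from a downstream group of starts, while an upstream group gives the longer golli transcripts, which are also made outside myelinating cells. The 3 upstream starts were open, with a single peak of 1.08 and 0.473 (percentiles 42.4 and 39.2, mean 40.8 ± 2.25), the lowest of the 7 open genes. The 7 downstream starts, between 82554470 and 82554580, had no strict or permissive peak within 1 kb in either library and no base of the FDR track. The nearest strict peaks lay 13224 and 13221 bases downstream of the innermost start. Replicate 1 had a permissive peak 6244 bases downstream (signal 0.602). The call of Mbp as open thus rested on the golli-type starts.

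Mag (chr7:30899176-30914873, minus strand) had no strict or permissive peak within 1 kb of any of its 3 starts. The nearest strict peaks lay 26653 and 26568 bases downstream, beyond the gene. Within the gene replicate 1 had a permissive peak (chr7:30908841-30908974, signal 0.557), 5334 bases from the nearest start.

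Prx (chr7:27499324-27520214, plus strand) had the strongest single promoter peak of the 9, with signals of 9.69 and 5.66 (percentiles 82.4 and 85.5, mean 84.0 ± 2.21). By the sum of its promoter peaks it stood at 84.5 ± 0.562, below Pmp22 and Egr2. The upstream start at 27499324 was closed, with no base of the FDR track within 1 kb, and the starts at 27507801 and 27507806 were open. The strongest peak did not cover a start: it ran from 295 to 514 bases after the start at 27507806 in replicate 1 and from 275 to 514 in replicate 2. Over the starts themselves replicate 1 had a peak of 1.98 and replicate 2 had none. With a window of 250 bases Prx was therefore open in replicate 1 only, and its mean percentile fell from 84.0 to 35.4. The antisense noncoding gene Gm15541 starts inside the strongest peak, so the peak cannot be assigned to Prx alone.

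The part of that peak without exon sequence (chr7:27508123-27508320, plus strand of mm10) is shown because the peak has the highest promoter signal in the set. The exon just before this stretch is that of Gm15541, which starts there on the opposite strand. The stretch thus lies directly upstream of the Gm15541 start, in an intron of Prx. Capitals mark bases that lie in footprints of both libraries.
Prx intron: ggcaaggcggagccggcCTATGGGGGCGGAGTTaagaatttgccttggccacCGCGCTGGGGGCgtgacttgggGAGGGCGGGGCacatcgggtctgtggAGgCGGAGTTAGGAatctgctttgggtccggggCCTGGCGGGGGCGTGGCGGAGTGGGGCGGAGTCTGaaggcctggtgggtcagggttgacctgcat
The stretch is 68.2% G or C, and 6 runs of bases were footprinted in both libraries. The whole merged region held 7 and 5 footprints.

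S100b (chr10:76253853-76261159, plus strand) encodes a calcium-binding protein used to stain Schwann cells, which is also made by other cells. A peak covered its only start, with signals of 1.76 and 0.670 (percentiles 47.3 and 42.1, mean 44.7 ± 3.63).

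Counted by start, 15 of the 28 distinct annotated starts of the 9 genes had a strict peak within 1 kb in both libraries. The share over all starts of all genes was 60.1%. The 13 without a peak were the 2 of Sox10, the 3 of Mag, the 7 downstream starts of Mbp and the upstream start of Prx, and none of the 13 windows held a base of the FDR track in either library. Starts within a group overlap in their windows and are not independent. The CpG ratio, the number of CpG dinucleotides relative to that given by base content, was taken over 250 bases before to 50 after each start. Over all genes its median was 0.775 at open starts (quartiles 0.584 and 0.920) and 0.196 at the others (0.0976 and 0.344). Of the closed starts, those of Sox10 (0.223 and 0.217), Mag (0.131, 0.132 and 0.190) and Prx (0.125) lay in the lower range. The downstream starts of Mbp were closed at ratios of 0.455 to 0.510, above the upper quartile of the closed starts. S100b (0.0972) and the upstream start of Pmp22 (0.158) were open at ratios as low as those of the closed starts.

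**Figure D2:**
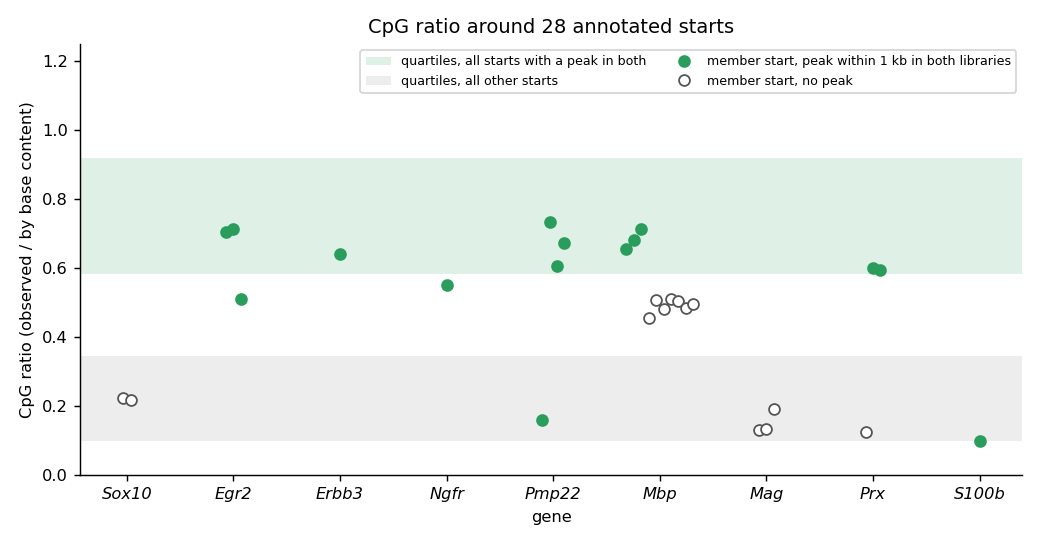
CpG ratio of the 28 annotated starts of the 9 genes, filled where a strict peak of each library lay within 1 kb and empty where not, with shaded quartiles of all open and all other starts. The empty points of Mbp sit above the shaded range of other starts, and the filled points of S100b and the lowest of Pmp22 sit far below that of open starts.

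Distal regions were merged regions with strict peaks of both libraries, outside the promoter windows of all protein-coding genes and at most 50 kb from an annotated start. All 9 genes had at least 1, against 73.4% of all genes. The 9 genes had 41 in all, with 9 at Ngfr, 8 each at Pmp22 and Mbp, 7 at Prx, 3 at Sox10, 2 each at Erbb3 and Mag, and 1 each at Egr2 and S100b. The median was 3, against 2 over all genes (quartiles 0 and 4). As many as Ngfr were found at 5.24% of all genes, and as many as Pmp22 or Mbp at 7.57%. Mbp has its starts in distant groups and so a longer searched stretch (179 kb), and per 100 kb it had 4.46 regions, against 9.0 at Ngfr and 7.69 at Pmp22.

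Proximity did not always make the member the nearest gene. For 28 of the 41 the nearest protein-coding start was that of the member, which included all 8 at Pmp22, all 8 at Mbp and 8 of 9 at Ngfr. All 3 near Sox10 were nearest to Polr2f, which encodes an RNA polymerase subunit, both near Mag to Cd22, a B cell lectin, and 6 of 7 near Prx to other genes. In annotation 20 of the 41 were intronic (48.8%, against 43.6% of all distal regions), 16 intergenic (39.0% against 49.4%) and 5 touched an exon (12.2% against 7.03%).

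**Figure D3:**
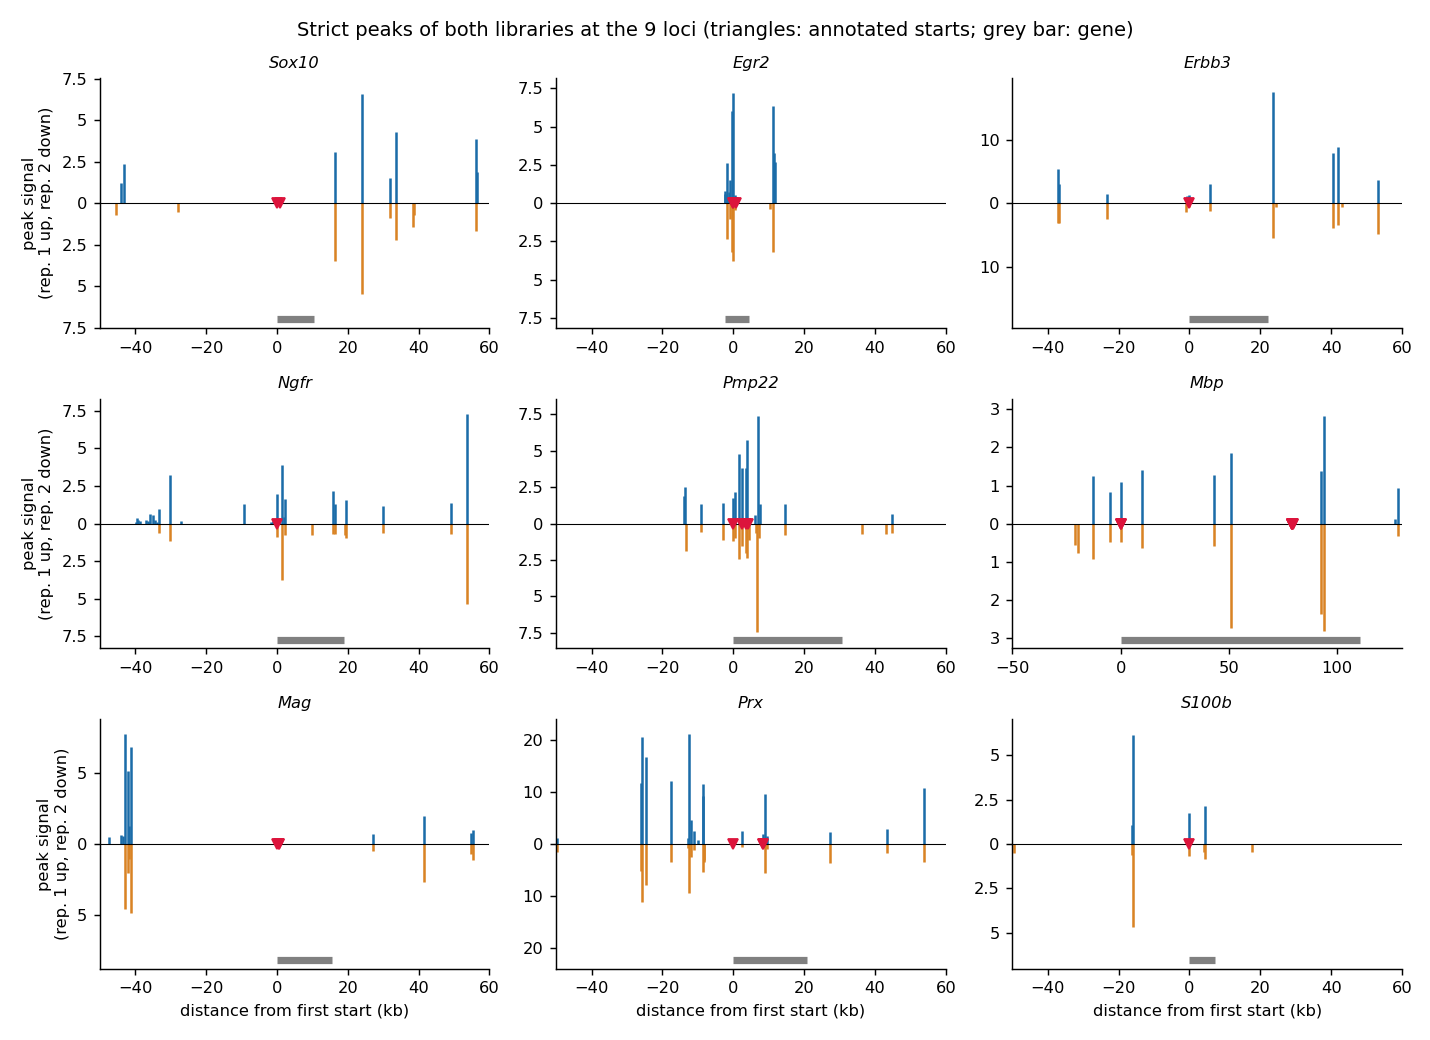
Signal of all strict peaks (replicate 1 upwards, replicate 2 downwards, linear axes that differ between panels) by distance from the outermost start of each gene, with triangles at annotated starts and a grey bar for the gene. Peaks at promoters of neighbouring genes are included; the starts of Sox10 and Mag and the downstream starts of Mbp lie in stretches without a peak.

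The distal region with the highest mean percentile, ranked among all 44392 distal regions, lay between Sertad1 and Prx. Sertad1, a transcriptional coregulator, is the nearer gene. The region had signals of 11.6 and 5.42 and a mean percentile of 99.1 ± 0.566. Close by, chr7:27490821-27491260 (9.29 and 3.38, mean percentile 96.7 ± 3.54) and chr7:27481561-27481880 (12.2 and 3.44, 97.0 ± 3.68) were also strong and also nearest to Sertad1. The region chr7:27542721-27542920 on the other side of Prx touched an exon of Pld3, a phospholipase family gene, and stood at percentile 82.2 ± 5.66 (2.87 and 1.81).

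The strongest region of Pmp22 was intronic, with signals of 7.35 and 7.41 and a mean percentile of 99.0 ± 0.827. It exceeded every promoter peak of Pmp22 in both libraries. Ngfr had its strongest region in an intron too (chr11:95586301-95586500), 1235 bases after the start, with 3.92 and 3.77 (94.4 ± 1.93), above its own promoter peak in both libraries. Near Sox10 the strongest region lay in an intron of Polr2f (chr15:79148661-79148860), 15630 bases downstream of the nearest Sox10 start, with 3.06 and 3.50 (91.3 ± 4.73). Next there was chr15:79131581-79131780 in an exon of Micall1, an endocytic recycling gene, with 4.31 and 2.20 (89.4 ± 7.13). At Mbp it was an intronic region (chr18:82568981-82569160), 14401 bases after the innermost start, with 2.84 and 2.81 (88.2 ± 3.30).

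The remaining genes had weaker strongest regions. At Egr2 the only distal region (chr10:67536061-67536260) had signals of 2.64 and 2.33 (84.8 ± 1.45), lay 1609 bases before the basic-set starts, and was within 1 kb of the starts at 67535475 and 67535583 that only the full annotation set lists. It may therefore be read as a promoter peak. An enhancer active in myelinating Schwann cells is known downstream of Egr2, and no distal region was found on that side within 50 kb, nor a distal strict peak of a single library. The permissive list gave 4 distal regions at Egr2, and on which side these lie was not examined. Mag had chr7:30873201-30873380 in an exon of Cd22 (1.95 and 2.70, mean percentile 80.8), Erbb3 chr10:128583821-128584020 in its own intron (3.05 and 1.19, 74.9), and S100b chr10:76258121-76258320 in its own intron (2.16 and 0.858, 60.9). All distal regions within 50 kb of Sox10, whose known enhancers lie largely upstream, were on its downstream side. Upstream, strict peaks came in single libraries only. Replicate 1 had them at 43121 and 43975 bases (signals 2.34 and 1.20) and replicate 2 at 27981 and 45254 bases (0.528 and 0.684), and each overlapped a permissive peak of the other library.

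Replicate 1 alone had 16 further distal strict peaks near Ngfr, 11 of them between 33886 and 39819 bases upstream. The signals of the 16 ran from 0.123 to 1.29, and all but 1 lay below the library's median peak signal of 1.27. Of the 16, 1 overlapped a permissive peak of replicate 2.

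Signals were in general higher in replicate 1, by a median ratio of 1.55 over 63851 shared regions, and each ratio below is given relative to that median. The strongest regions of Pmp22, Ngfr, Sox10, Mbp and Mag were all relatively stronger in replicate 2, with relative ratios of 0.642, 0.673, 0.566, 0.653 and 0.467. The strongest region of Egr2 was too (0.732), without a CTCF match, while those of Prx (1.38), S100b (1.63) and Erbb3 (1.65) were relatively stronger in replicate 1. The 5 were not the lowest ratios, since 1 region at Erbb3 (0.363), 2 at Mbp (0.378 and 0.439) and 1 at Prx (0.446) lay lower and held no CTCF match. A CTCF motif, searched after these values had been seen, was found in each of those 5 strongest regions. CTCF is the zinc finger protein that holds chromatin loops at insulators and is bound in most cell types. Each sequence is given on the strand of the match, with the match in capitals, because these are the strongest distal sites of 3 of the genes, both without a promoter peak among them. Sox10 and Ngfr are on the minus strand of mm10 at the coordinates given above, whole. Mag is on the plus strand at chr7:30873267-30873296, and no sequence is shown for the others.
Sox10: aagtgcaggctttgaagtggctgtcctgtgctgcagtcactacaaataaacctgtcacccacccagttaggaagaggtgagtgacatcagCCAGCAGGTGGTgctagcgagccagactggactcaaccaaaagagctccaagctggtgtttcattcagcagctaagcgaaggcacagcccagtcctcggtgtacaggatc
Ngfr: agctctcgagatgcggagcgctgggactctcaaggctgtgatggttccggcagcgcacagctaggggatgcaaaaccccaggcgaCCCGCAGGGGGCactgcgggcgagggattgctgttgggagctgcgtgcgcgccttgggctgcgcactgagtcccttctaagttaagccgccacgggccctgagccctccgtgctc
Mag: gttcctgatCCTCTAGGGGGCgcccatcct
Each of the 5 matches lay wholly under a single footprint in each library. The footprints over the matches were 26 to 46 bases long in replicate 1 and 27 to 48 in replicate 2.

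CTCF matches were found in 5 of the 41 distal regions of the 9 genes, against 12.7% of all distal regions, a like share. In the central 200 bases, where all regions have the same length, the counts were 5 of 41 and 12.6%. All 5 were the strongest region of their gene by mean percentile, so that 5 of 9 strongest regions held a match. In replicate 1 alone the Micall1 exon region near Sox10, without a match, was stronger (4.31 against 3.06). The like share over the strongest regions of all genes was not computed. Strong regions hold the motif more often in general: 23.7% of all distal regions at or above percentile 80 did, and 5 of 13 of the members'. Matches in a footprint of both libraries were present in the same 5 regions, against 12.0% of all distal regions. The ratio of libraries followed the motif over the whole genome. Its median was 0.502 relative to all shared regions for the 5644 distal regions with a match (quartiles 0.399 and 0.653) and 0.984 for the 38748 without (0.711 and 1.29). Of the 36 member regions without a match the median was 1.11, in a range from 0.363 to 2.76. The labels name 2 instrument models for replicate 1, whose part in this was not tested.

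**Figure D4:**
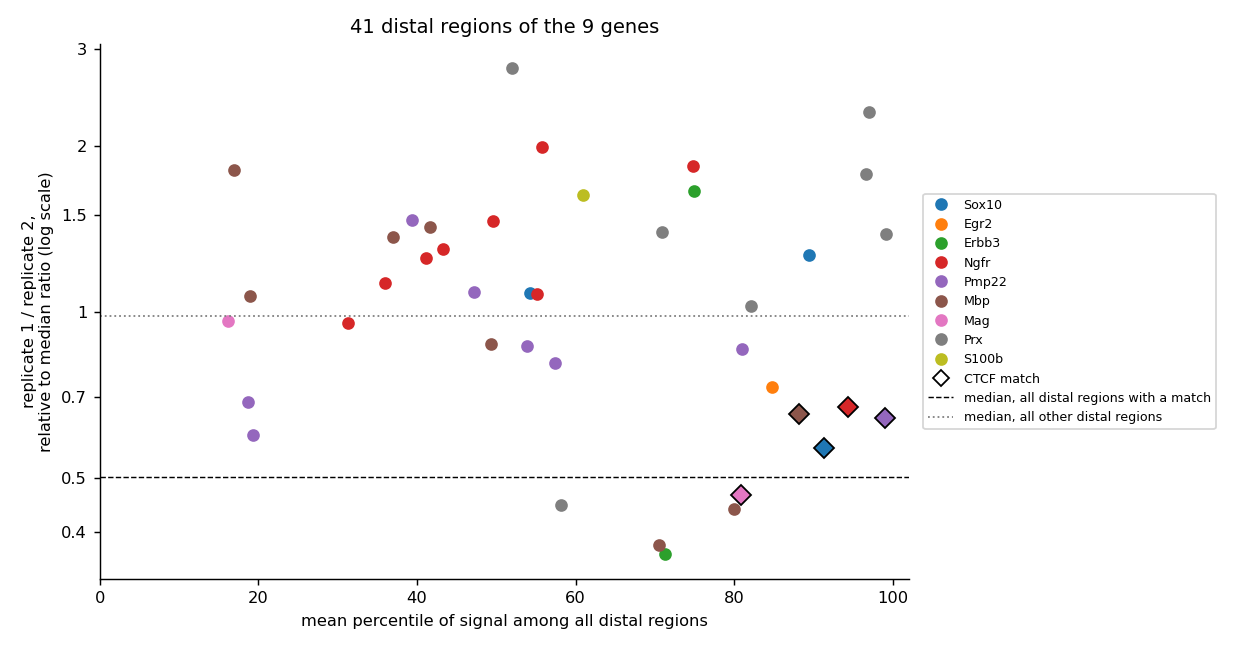
Ratio of replicate 1 to replicate 2 relative to the median of all shared regions (log axis) against the mean percentile of signal for the 41 distal regions, coloured by gene, with diamonds for regions with a CTCF match and lines at the medians of all distal regions with and without one. The 5 diamonds lie between 0.467 and 0.673 and above percentile 80, while regions near Prx reach 2.76.

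SOX matches (ACAAAG or ACAATG, either strand), the core motif of the family of Sox10, were found in 5 of the 41 distal regions, against 20.3% of all distal regions. In the central 200 bases the counts were 2 of 41 and 19.0%. None of the 16 member promoter regions held a match, against 15.0% of all promoter regions. No match in a member region lay in a footprint of both libraries, which 2.86% of all distal regions had. A pair of SOX matches in opposite orientation with 3 to 10 bases between, the form that Sox10 dimers bind, was in no member region and in 0.124% of all distal regions. The matches outside Mbp are shown with 20 bases on either side, on the plus strand of mm10 with the match in capitals. They were chosen because, with 1 match near Mbp, they are the only matches of this motif in the 41 distal regions. The permissive list holds more. They lie in introns at chr11:95585354-95585399 (Ngfr), chr11:63136478-63136523 (Pmp22), chr7:27501757-27501802 (Prx) and chr10:76258113-76258158 (S100b).
Ngfr SOX: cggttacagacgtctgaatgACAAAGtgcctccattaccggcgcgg
Pmp22 SOX: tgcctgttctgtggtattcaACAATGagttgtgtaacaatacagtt
Prx SOX: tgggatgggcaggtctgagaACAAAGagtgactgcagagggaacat
S100b SOX: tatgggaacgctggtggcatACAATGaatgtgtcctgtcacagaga
The Prx region, between the closed upstream and the open inner starts, is the only distal region nearest to Prx and had signals of 2.47 and 0.578, with the highest relative ratio of the 41. A motif match is a description of letters and shows no binding.

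Other motifs lay on both sides of their background, with small counts. E-boxes of the letters CAGCTG, the form bound by muscle regulators such as Myod1, were in 15 of 41 distal regions against 29.6% (12 of 41 against 27.6% in the central 200 bases), and in 6 of 16 promoter regions against 18.0%. TEAD matches (CATTCC) were in 2 of 16 promoter regions against 9.86% and in 4 of 41 distal regions against 14.3%, and the 1 in a footprint of both libraries was the Micall1 exon region downstream of Sox10. AP-1 matches (TGANTCA) were in 2 of 16 promoter regions against 3.98%, and in 3 of 41 distal regions against 10.9%. MEF2 matches were in 1 of 41 distal regions against 2.42%, and in no promoter region against 1.09%. No member region held a cyclic AMP response element (TGACGTCA), against 2.74% of all promoter and 0.550% of all distal regions. EGR matches (GCGNGGGCG, either strand), the motif of the family of Egr2 that other factors, Egr1 among them, share, were in 2 of the 16 promoter regions of the members, against 12.8% of all promoter regions. They were in 1 of 41 distal regions against 1.09%. That match lay in a footprint of both libraries, in the strongest region between Sertad1 and Prx. Among the promoter regions 10 of 16 held a GC box (GGGCGG) against 65.0%, and 6 of 16 a CCAAT box (CCAAT) against 30.5%. Among the distal regions the GC box was in 6 of 41 against 12.6% and the CCAAT box in 4 of 41 against 24.1%. All were searched on both strands, and the GC box can overlap the EGR motif.

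Footprints were as dense as elsewhere. The 16 promoter regions of the members held 62 and 60 footprints, which covered 20.2% and 18.7% of their bases, against 20.3% and 22.1% over all promoter regions. The 41 distal regions held 135 and 154, covering 20.7% and 23.3%, against 18.6% and 21.8%. Within the promoters, Prx had the highest covered share of bases (30.0% and 34.8%). The lowest was at S100b (8.49% and 11.9%).

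The wider lists of Schwann cell genes were open to differing extents, to be read beside the 61.7% of all genes that were open. Of 15 other regulators 12 were open, with the highest percentiles at Jun, the repair-state AP-1 factor (98.9), the histone deacetylase gene Hdac1 (94.2) and the Hippo effector Tead1 (83.4). Pou3f2, a POU factor, had no peak. Of 15 genes of axon signals and receptors 14 were open, led by Igf1r, the IGF receptor (86.8), Lgi4, a secreted Schwann cell protein (77.7), and Adam22, its receptor (61.6). Dhh, the hedgehog ligand of Schwann cells, had none. Many genes of both lists are expressed in other cells of muscle too.

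Of 15 other genes of myelin proteins and lipids 7 were open (46.7%), below the 61.7% of all genes. The RNA-binding protein gene Qk led them with signals of 7.73 and 5.67 (percentile 80.6 ± 6.96), followed by Ndrg1, a gene of myelin maintenance (69.2), and the tetraspanin gene Cd9 (54.9). There was no peak at the connexin genes Gjb1 and Gjc3 or at Ugt8a, for an enzyme of myelin galactolipids. Of 14 genes of basal lamina, nodes and paranodes 10 were open, with Dag1, for dystroglycan (98.9), the integrin gene Itgb1 (86.0) and Ezr, for ezrin (64.1), at the top. Itgb4, Gldn and Col28a1 had no peak.

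Of 10 genes of immature, nonmyelinating and repair Schwann cells 5 were open, against 61.7% of all genes. Highest were Cadm2 (68.0), a cell adhesion gene, Matn2 (61.6), a matrix protein gene, and Ncam1 (61.5), a neural adhesion gene. The cadherin gene Cdh19, Gap43 and Gfap, which are used as Schwann cell markers, had no peak. Over the 5 lists together 48 of 69 genes were open (69.6%), not far from the 61.7% of all genes.

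Lists of other cell types were counted the same way, to be read beside the 61.7% of all genes that were open. Of 10 oligodendrocyte genes, a glial type of the central nervous system that shares Mbp and Mag, 2 were open, Myrf (55.3) and Olig1 (50.9), and Olig2, Mog and Mobp had no peak. Of 7 melanocyte genes, a cell type that shares Sox10, Mitf (73.8) and Kit (46.1) were open and the pigment enzyme genes Tyr, Tyrp1 and Dct had no peak. Of 9 genes of perineurium and nerve fibroblasts 7 were open, led by Osr2 (73.1), Slc2a1 (65.7) and Sox9 (62.5), and Lypd2 had none. Of 6 endothelial genes 3 were open, Kdr (50.3), Tek (43.9) and Cdh5 (43.3), with no peak at Emcn and Vwf. Of 7 neuronal genes, whose nuclei lie outside muscle, Isl1 (52.8) and Nefm (42.1) were open, and Chat, Slc5a7 and Prph had no peak. Which cells gave the member peaks was not tested.

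**Figure D5:**
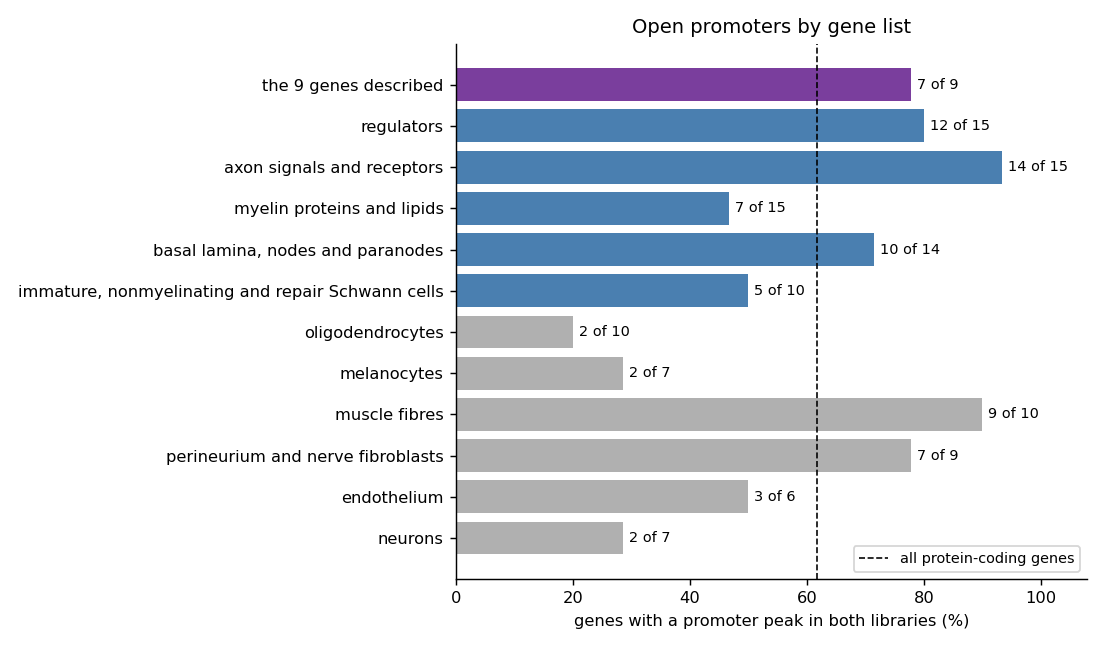
Share of genes with a promoter peak in both libraries for the 9 genes described, 5 lists of Schwann cell and myelin genes (blue) and 6 lists of other cell types (grey), with the counts at the bars and a dashed line at the 61.7% of all protein-coding genes. Above the line lie the 9 genes, regulators, axon signals and receptors, basal lamina, muscle fibre, and perineurium and nerve fibroblast genes. Below it lie myelin proteins and lipids (7 of 15), immature, nonmyelinating and repair Schwann cells, and endothelium. Melanocyte, neuronal and oligodendrocyte genes lie lowest.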

How the data were processed

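The deposited files of both DNase-seq libraries were used as deposited, on build mm10. The peak signal in both peak lists is the authors' value, called per library and not on pooled reads; its scaling, the aligner and the callers are not stated in labels and headers. The per-base FDR values, which are p-value type quantities, and the constant footprint threshold of 0.01 are the authors' own, per the deposited files. Reads and read totals were not analysed here, so depth and counting error are unknown. The number of peaks is given per library and is a measure of neither.

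Starts came from GENCODE M21 (basic set) and sequences from RefSeq GRCm38.p6; 0 peaks passed a chromosome end. Regions were merged over libraries (1 base of overlap). Python 3.11 with pandas 2.3.3 and pysam 0.24.0 was used, and interval functions were checked on simulated data. The motif search was checked there with planted SOX, TEAD, EGR and cyclic AMP response element matches. The CTCF and SOX pair searches were not checked in this way. Named were all 9 genes, their strongest promoter peak and distal region, the 10 strongest distal regions, and per list the 3 highest open genes and up to 3 without a peak. Some listed genes and sequences are not reported here. The members, lists and motifs were chosen with earlier results of these data known. Alternatives were other windows, lists, overlaps and single libraries. The CTCF motif, the full-set starts and single-library counts of starts and motifs were added after seeing the data.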

Additional observations from a re-analysis of the deposited data

How the results depend on the processing

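The count of 7 open genes ranged from 5 to 7 over 8 alternatives. It was 6 with windows of 250 bases, where 58.6% of all genes were open and Prx was not, and 5 with only the stronger peaks of each library, from its median signal upwards (54.3% of all genes), where Mbp and S100b were lost. Of the starts, 12 to 15 were open. The 41 distal regions became 26 within 20 kb, 68 within 100 kb and 65 in the permissive list, and without a replicate 55 to 67, where replicate 1 alone gave 25 near Ngfr in place of 9. Within 20 kb the median per gene was 1 for the members and 1 over all genes (means 2.89 and 1.13). It was 9 against 4 within 100 kb and 7 against 3 in the permissive list. Footprints at the loci, 205.5 on average over the libraries, became 258.5 in the permissive list. SOX matches, in 5 distal regions, became 9 in the permissive list and 0 where a footprint of both libraries was required. CTCF matches, in 5, became 10 in the permissive list, and without a replicate 5 to 8. For both motifs these counts are over 65 regions in the permissive list and 55 or 67 without a replicate, in place of 41. The causes were not tested, beyond the wider or narrower search that these settings make by construction. Over single genes, 44 of 72 alternative distal counts stayed within 1.5 times and 40 of 54 alternative percentiles within the SD of the libraries. The 40 include the percentiles of each library taken alone, which with 2 libraries lie within that SD by construction and show no stability. No paired analysis was possible because there is 1 group and no comparison between groups. With 2 libraries of 1 group no difference between conditions, ages or cell types can be drawn from these values, and an absent peak means only that none was called.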
